A study of Rattus norvegicus with 6 samples.

Results

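In rat renal cortex, 10 carriers of the proximal tubule that move glucose, phosphate, sulfate, carboxylates and protons were followed: Slc5a1, Slc5a2, Slc2a2, Slc5a8, Slc5a12, Slc13a3, Slc13a1, Slc34a1, Slc34a3 and Slc9a3. They were chosen by name as a functional group, and probes were assigned to them through the transcript accession of each probe. All 10 genes were measured, by 21 of the 61537 non-control probes, and they stand among 12112 named genes that could be tested. The 21 probes were well above background on all 6 arrays, so none was lost to the filter on dim probes.

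The samples were renal cortex from 6 male Sprague-Dawley (Crl:CD(SD)) rats, bought at 5 weeks of age. The vehicle group was 3 rats given corn oil for 4 weeks. The treated group was 3 rats given the compound sulfone bis(p-chlorophenyl) at 250 mg/kg/day for 4 weeks. The labels give no genetic modification in either group. Each rat gave 1 array, and the cortex was profiled whole, so a lower signal from fewer proximal tubule cells and a lower signal from less RNA per cell cannot be told apart.

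The proximal tubule takes back nearly all filtered glucose and most filtered phosphate. Glucose enters the cell with sodium through SGLT2 (Slc5a2) in the early segments and through SGLT1 (Slc5a1) in the late, straight segment, and leaves across the basolateral membrane through GLUT2 (Slc2a2). Phosphate enters through NaPi-IIa (Slc34a1) and NaPi-IIc (Slc34a3), which parathyroid hormone and FGF23 restrain. Lactate and related acids enter through SMCT1 (Slc5a8) and SMCT2 (Slc5a12), dicarboxylates through NaDC3 (Slc13a3) on the basolateral side, and sulfate through NaS1 (Slc13a1), while NHE3 (Slc9a3) exchanges sodium for protons.

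Values are on a log2 scale on which 0 is the 75th percentile of an array's processed signals. Probes differ in how brightly they report, and levels of different probes are not set against each other. Groups were compared with limma over all 40643 tested probes with Benjamini-Hochberg adjustment, and a gene was called at an adjusted p under 0.05. The scanner's slides split the arrays unevenly: slide 1 (scan 1) held vehicle 1, 2 and 3 and treated 1, and slide 2 (scan 2) held treated 2 and 3. A value with slide as a block therefore equals treated 1 against the vehicle arrays. Between 66.1% and 68.2% of probes per array were well above background, and the 6 general proximal tubule markers (Lrp2, Cubn, Aqp1, Ggt1, Anpep and Slc22a6) were well above background on every array. The podocyte marker Nphs1, which marks cortex, was as well. All 4 markers listed for medulla were also measured, at a summed linear signal of 1.92 to 2.37 times the 75th percentile in vehicle and 2.32 to 2.75 in treated arrays.

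None of the 10 carriers passed the test over all probes, with adjusted p-values from 0.095 to 0.98, in a comparison that called 0.00738% of tested probes. At an unadjusted p under 0.05, 4 of the 10 were higher and 0 lower by their brightest probe, against 10.1% of all tested genes higher and 11.3% lower. The same 4, Slc5a8, Slc2a2, Slc5a12 and Slc5a1, had every treated array above every vehicle array, which held for 13.9% of tested genes, and 0 had every treated array below, which held for 16.8%. The median difference over the 10 was 0.16 on the log2 scale, against -0.01 over all tested genes. Of the differences, 7 were positive and 3 were negative.

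**Figure D1:**
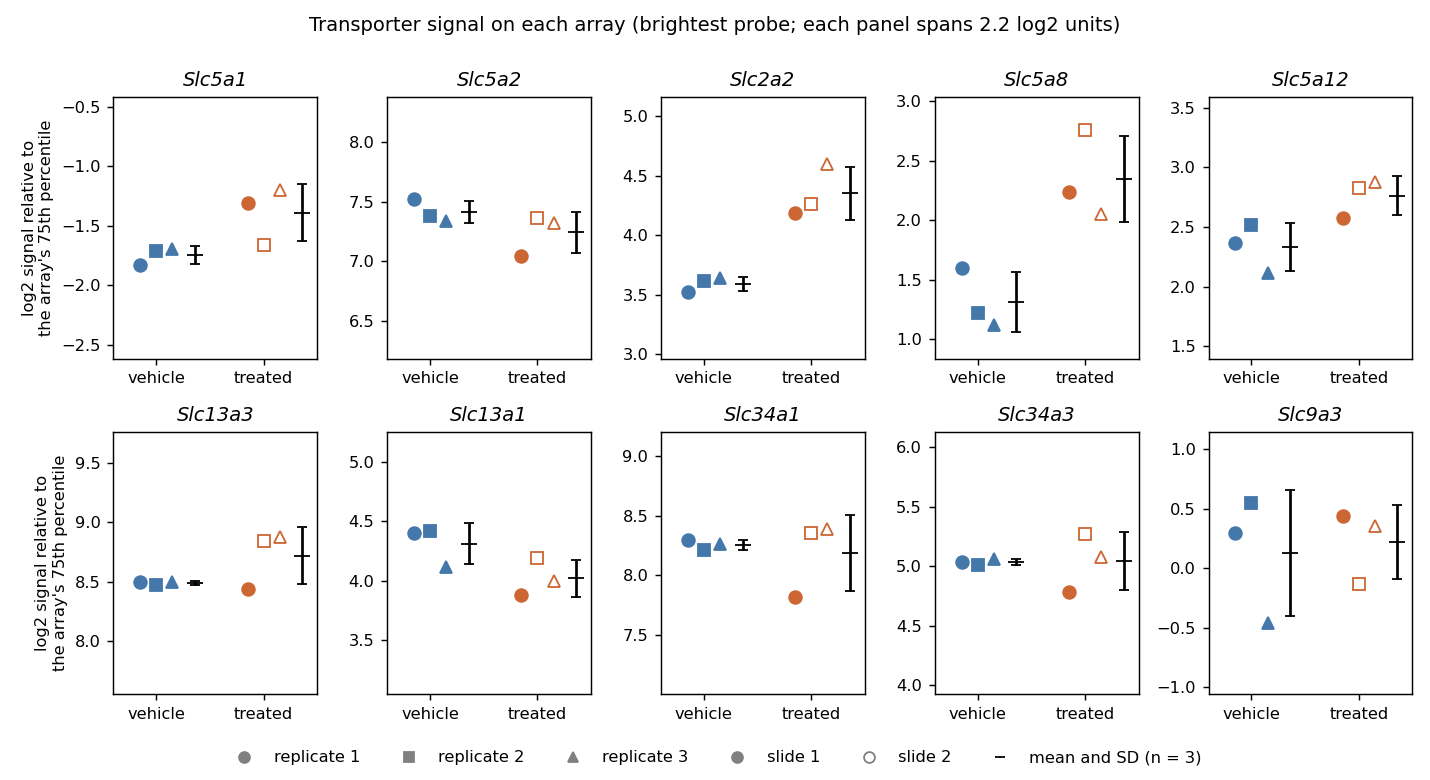
Log2 signal relative to the array's 75th percentile for the brightest probe of each carrier, with 1 point per array, filled for slide 1 and open for slide 2, and the mean and SD of 3 arrays beside each group. Treated points lie above all vehicle points for Slc5a1, Slc2a2, Slc5a8 and Slc5a12, and treated 1 is the lowest of the 6 arrays for 5 carriers.

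Promoter sequence is shown for Slc5a8 and Slc2a2, the carriers with the largest differences, to show how unlike the sequences before their starts are. Each line gives 300 bases, from 250 before to 50 after the annotated start, from RefSeq on build GRCr8 and 5′ to 3′ on the gene's strand. Capitals mark AGGTCA, the core that HNF4A and other nuclear receptors bind, on either strand. The Slc5a8 window is chr7:25160030-25160329 and the Slc2a2 window is chr2:113540120-113540419, both on the plus strand.
Slc5a8: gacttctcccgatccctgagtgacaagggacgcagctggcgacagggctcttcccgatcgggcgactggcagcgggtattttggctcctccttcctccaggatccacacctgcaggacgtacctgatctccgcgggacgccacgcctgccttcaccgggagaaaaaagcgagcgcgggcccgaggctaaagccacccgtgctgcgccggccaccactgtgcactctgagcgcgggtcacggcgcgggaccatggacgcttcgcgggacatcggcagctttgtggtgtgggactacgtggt
Slc2a2: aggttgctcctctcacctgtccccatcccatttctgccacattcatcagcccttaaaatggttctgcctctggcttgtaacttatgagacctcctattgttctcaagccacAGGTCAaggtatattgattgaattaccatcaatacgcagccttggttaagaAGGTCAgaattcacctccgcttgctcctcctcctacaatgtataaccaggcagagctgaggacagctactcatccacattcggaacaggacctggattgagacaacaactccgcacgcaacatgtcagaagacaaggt
The Slc2a2 window held AGGTCA at -139 and -88 from the start, and the Slc5a8 window held none. GC content was 65.7% for Slc5a8 and 47.7% for Slc2a2, against a median of 52.3% over 27457 promoters of the same length. Across all 10 carriers AGGTCA was found in Slc2a2 and Slc34a3 alone, and 15.7% of all promoters hold it on either strand. TATAAA, searched on both strands, was found in Slc34a1 at -43 and in Slc13a1 at -203 and -201, against 14.3% of all promoters. Among the 4 carriers whose groups did not overlap, Slc2a2 alone held either motif. A match or its absence describes these letters in this window and nothing about binding.

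Among the glucose carriers the basolateral exit carrier and the late-segment entry carrier had higher values in treated cortex, while the early-segment entry carrier did not. Slc2a2 gave 3.53, 3.61 and 3.64 in vehicle 1, 2 and 3, and 4.19, 4.27 and 4.60 in treated 1, 2 and 3. The vehicle arrays lay within 0.11 of each other, and the lowest treated array was well clear of them. The group means were 3.59 ± 0.06 (SD, n = 3) and 4.35 ± 0.22 (SD, n = 3), a difference of 0.76 (SE 0.12, 95% interval 0.45 to 1.06), or 1.69-fold, with a limma adjusted p of 0.095. With slide as a block the difference was 0.59 (limma adjusted p = 0.25).

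All 3 probes of Slc2a2 gave the same picture. Probe 2 read 1.96, 2.05 and 2.03 in vehicle and 2.63, 2.92 and 3.17 in treated arrays, a difference of 0.90 (SE 0.14, limma adjusted p = 0.091). Probe 3 read -1.67, -1.76 and -1.81 in vehicle and -1.35, -0.90 and -0.64 in treated arrays, a difference of 0.78 (SE 0.18, limma adjusted p = 0.13). Each probe ordered the treated arrays alike, with treated 1 lowest and treated 3 highest, and on none did the groups overlap.

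Slc2a2 is also the main glucose carrier of liver, and liver transcripts varied between these arrays. All 9 listed liver transcripts were measured. Their summed linear signal ranged from 12.3 to 43.3 times the 75th percentile in vehicle and from 28.3 to 76.9 in treated arrays. Alb, which encodes albumin, read 3.49, 2.43 and -0.28 in vehicle 1, 2 and 3 and 1.26, 2.12 and 3.92 in treated 1, 2 and 3. All 9 differences were positive, with a median of 0.55, or -0.43 with slide as a block, and 0 were called. Vehicle 3 was the lowest of the 6 arrays for all 9. Over the vehicle arrays Alb spanned 3.77 log2 units and Slc2a2 spanned 0.11. The median deviation of the 9 from their vehicle means was -0.43, 0.24 and 2.04 in treated 1, 2 and 3, and that of Slc2a2 was 0.59, 0.67 and 1.01. Without treated 3 the Slc2a2 difference was 0.63. The part of liver transcripts in the Slc2a2 values was not tested.

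The entry carrier of the late segment, Slc5a1, read -1.83, -1.71 and -1.69 in vehicle and -1.31, -1.66 and -1.20 in treated arrays. Treated 2 lay just above the highest vehicle array, and treated 1 and 3 lay well above it. The means were -1.74 ± 0.07 (SD, n = 3) and -1.39 ± 0.24 (SD, n = 3), a difference of 0.36 (SE 0.13, 95% interval 0.03 to 0.69, limma adjusted p = 0.22). Blocking on slide gave 0.44. Its dimmer probe differed by 0.28 (SE 0.18, limma adjusted p = 0.40) and its groups overlapped.

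Among the treated arrays, the median of the straight segment markers and Slc5a1 were both lowest in treated 2. The marker median was highest in treated 1 and Slc5a1 in treated 3. The 8 listed markers, all measured, had median deviations from the vehicle mean of 0.96, 0.37 and 0.77 in treated 1, 2 and 3, and Slc5a1 had 0.44, 0.09 and 0.55. In vehicle 1, 2 and 3 the marker medians were -0.27, 0.07 and 0.24, while Slc5a1 spanned 0.14 over these arrays. Their summed linear signal ranged from 294.6 to 453.3 times the 75th percentile in vehicle and from 442.4 to 630.8 in treated arrays. Of the 8, 7 differences were positive, 1 was negative and 0 passed over all probes. Every treated array lay above every vehicle array for 2 (Slc22a7 and Slc6a18), against 13.9% of all tested genes. Every treated array lay below for 1 (Slc7a9, a cystine carrier subunit), against 16.8%. The 5 markers of the early segments had a median difference of -0.26 and treated medians of -0.33, 0.00 and -0.21. The part of these markers in the Slc5a1 values was not tested.

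**Figure D2:**
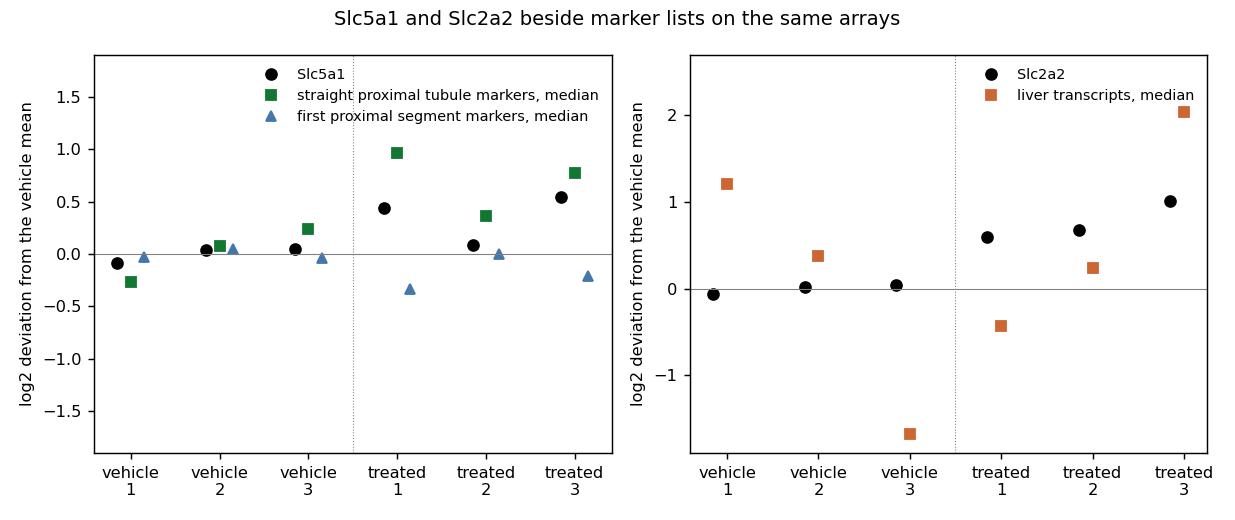
Log2 deviation from the vehicle mean on each array for Slc5a1 with the medians of the straight and early segment markers (left), and for Slc2a2 with the median of the liver transcripts (right). Among the treated arrays, Slc5a1 and the straight segment median are both lowest in treated 2, with the median highest in treated 1 and Slc5a1 in treated 3. Over the vehicle arrays Slc2a2 spans 0.11 and the liver median lies between -1.68 and 1.21.

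The early-segment carrier Slc5a2 read 7.52, 7.38 and 7.34 in vehicle and 7.04, 7.36 and 7.32 in treated arrays. Treated 2 lay within the vehicle range, treated 3 just below it and treated 1 further below. The difference was -0.17 (SE 0.11, 95% interval -0.44 to 0.11, limma adjusted p = 0.43). It was -0.37 with slide as a block. Its 3 probes differed by -0.19 to -0.14, and treated 1 was 0.37 to 0.48 below the vehicle mean on each.

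The monocarboxylate carriers, which in mouse divide the tubule with Slc5a12 in the early and Slc5a8 in the late part, were both higher on every treated array. Slc5a8, the high-affinity form, read 1.60, 1.22 and 1.12 in vehicle and 2.24, 2.76 and 2.05 in treated arrays. Treated 2 was the highest here, unlike for Slc2a2 and Slc5a1. The means were 1.32 ± 0.25 (SD, n = 3) and 2.35 ± 0.36 (SD, n = 3), a difference of 1.03 (SE 0.22, 95% interval 0.50 to 1.57), or 2.05-fold, with a limma adjusted p of 0.12. This was the largest difference of the 10, and it was 0.92 with slide as a block. It rests on 1 probe.

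Slc5a12, the low-affinity form, read 2.37, 2.51 and 2.11 in vehicle and 2.58, 2.83 and 2.88 in treated arrays. The difference was 0.43 (SE 0.14, 95% interval 0.09 to 0.77, limma adjusted p = 0.19). The slide-blocked difference was 0.24. Treated 1 was only just above vehicle 2. The dimmer probe read 2.13, 2.33 and 1.83 against 2.12, 2.44 and 2.31, so its groups overlapped, and its difference was 0.19 (SE 0.16, limma adjusted p = 0.50).

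The dicarboxylate and sulfate carriers, close relatives in the Slc13 family, lay on opposite sides of 0. Slc13a3, which supplies the dicarboxylate that drives organic anion uptake, read 8.50, 8.47 and 8.50 in vehicle and 8.44, 8.84 and 8.87 in treated arrays. Treated 2 and 3, both on slide 2, lay above the vehicle arrays, which spanned 0.03, and treated 1, on slide 1, lay just below them. The difference was 0.23 (SE 0.13, 95% interval -0.09 to 0.55, limma adjusted p = 0.36). Blocking on slide gave -0.05.

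Slc13a1, the apical sulfate carrier, read 4.41, 4.42 and 4.12 in vehicle and 3.88, 4.19 and 3.996 in treated arrays. Only treated 2 reached into the vehicle range. The difference was -0.29 (SE 0.13, 95% interval -0.60 to 0.02, limma adjusted p = 0.26). It was -0.43 with slide as a block. Probe 2, at 1.65, 1.74 and 1.43 in vehicle and 1.31, 1.39 and 1.15 in treated arrays, did not overlap between groups and differed by -0.32 (SE 0.11, limma adjusted p = 0.20). Probe 3 differed by -0.54 (SE 0.19, limma adjusted p = 0.21). All 3 probes of the sulfate carrier thus lay on the negative side, with no call.

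The phosphate carriers did not separate the groups, and treated 1 stood apart from treated 2 and 3 in both. Slc34a1 read 8.30, 8.21 and 8.26 in vehicle and 7.82, 8.36 and 8.39 in treated arrays. The difference was -0.07 (SE 0.16, 95% interval -0.47 to 0.33, limma adjusted p = 0.83). The slide-blocked difference was -0.44. Its other probe repeated the pattern, at 6.98, 7.04 and 7.01 in vehicle and 6.11, 7.05 and 7.05 in treated arrays, where treated 1 was 0.90 below the vehicle mean. Slc34a3 read 5.04, 5.01 and 5.06 in vehicle and 4.79, 5.27 and 5.08 in treated arrays, a difference of 0.01 (SE 0.13, 95% interval -0.31 to 0.33, limma adjusted p = 0.98). Blocking on slide gave -0.25. For both, the vehicle arrays lay within 0.09 of each other, so the spread came from the treated arrays.

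Slc9a3 gave no single answer, because its 3 probes disagreed. Probe 1 read 0.30, 0.55 and -0.46 in vehicle and 0.44, -0.13 and 0.36 in treated arrays, a difference of 0.09 (SE 0.29, 95% interval -0.63 to 0.81, limma adjusted p = 0.88). Probe 2 read -1.41, -1.37 and -1.39 in vehicle and -1.64, -2.58 and -2.81 in treated arrays, a difference of -0.96 (SE 0.30, limma adjusted p = 0.18). Probe 3 read -3.58, -3.35 and -3.44 against -3.56, -3.03 and -3.47, a difference of 0.10 (SE 0.16, limma adjusted p = 0.73). On probe 2 the 2 arrays of slide 2 lay 1.19 and 1.43 below the vehicle mean and treated 1 lay 0.25 below it. Its difference with slide as a block was -0.25.

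**Figure D3:**
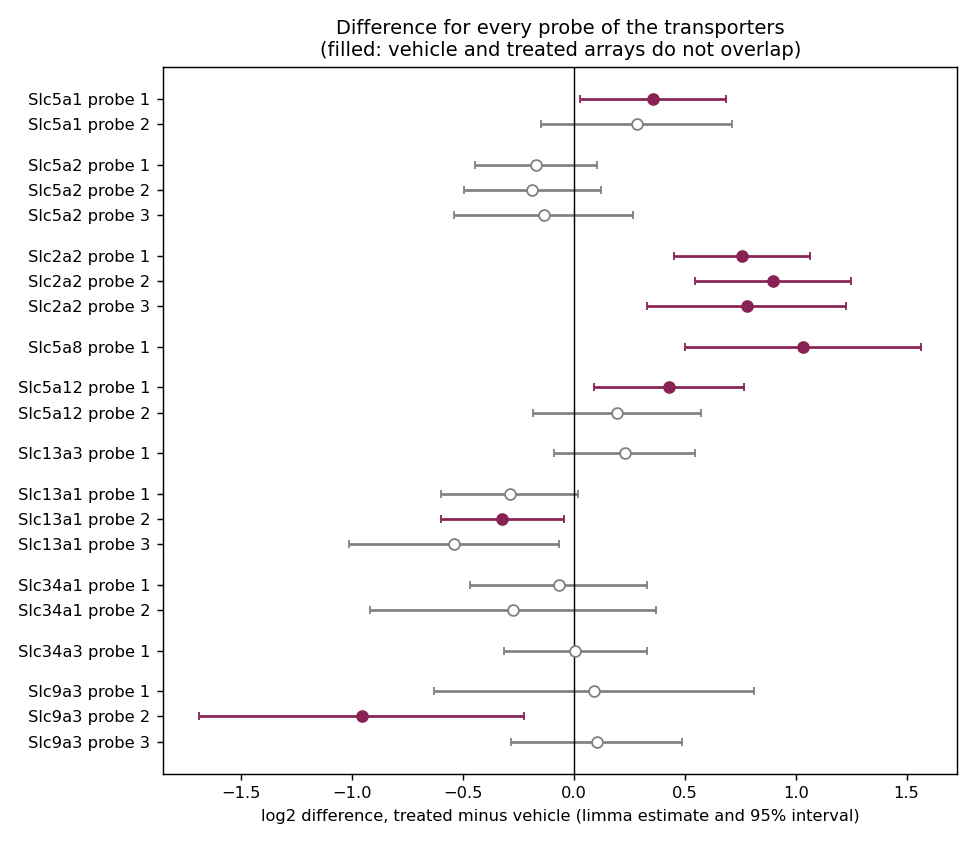
Log2 difference, treated minus vehicle, with its 95% interval for each of the 21 probes, numbered by brightness within a gene and filled where the groups do not overlap. The 3 Slc2a2 probes lie between 0.76 and 0.90, the 3 Slc13a1 probes lie below 0, and Slc9a3 probe 2 lies at -0.96 while its other probes lie near 0.1.

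Of the 7 carriers with several probes, 6 had all probes on 1 side of 0, the exception being Slc9a3. Over the 21 probes, 8 had groups that did not overlap, 6 higher and 2 lower, against 28.4% of all tested probes in either direction. At an unadjusted p under 0.05 there were 6 higher and 3 lower, against 20.6% of all tested probes. Several probes read the same gene, so these counts are not counts of separate carriers. All 3 Slc2a2 probes were among the 6 higher in both counts. Slc13a1 probes 2 and 3 were among the 3 lower.

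Treated 1 was the only treated array on slide 1, so a difference of that rat and a difference of the slide cannot be told apart. Treated 1 was the lowest of the 6 arrays for 5 carriers (Slc5a2, Slc13a3, Slc13a1, Slc34a1 and Slc34a3), whereas the highest array was treated 2 or treated 3 for 7 carriers. The same array, treated 1, was lowest for 3 of 5 early segment markers and 4 of 7 collecting duct markers. It was lowest for 2 of 6 general proximal tubule, 1 of 8 straight segment and 0 of 4 thick ascending limb markers. For Slc5a1 and Slc5a8, treated 1 lay between treated 2 and treated 3. The median deviation of the 10 from the vehicle mean was 0.10, 0.16 and 0.30 in treated 1, 2 and 3. Without treated 1 the treated group lay wholly on slide 2 and the vehicle group wholly on slide 1, so slide and treatment cannot be told apart, and 10.3% of all tested probes were called. In that setting Slc2a2 (0.84, SE 0.12, limma adjusted p = 0.026) and Slc13a3 (0.37, SE 0.06, limma adjusted p = 0.033) were called, and Slc34a1 changed sign to 0.11. On slide 1 alone, treated 1 was set against the 3 vehicle arrays. Positive differences were 0.92 for Slc5a8, 0.59 for Slc2a2, 0.44 for Slc5a1, 0.31 for Slc9a3 and 0.24 for Slc5a12. Negative ones were -0.44 for Slc34a1, -0.43 for Slc13a1, -0.37 for Slc5a2, -0.25 for Slc34a3 and -0.05 for Slc13a3. There the lone treated array was assumed to vary like the vehicle arrays.

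**Figure D4:**
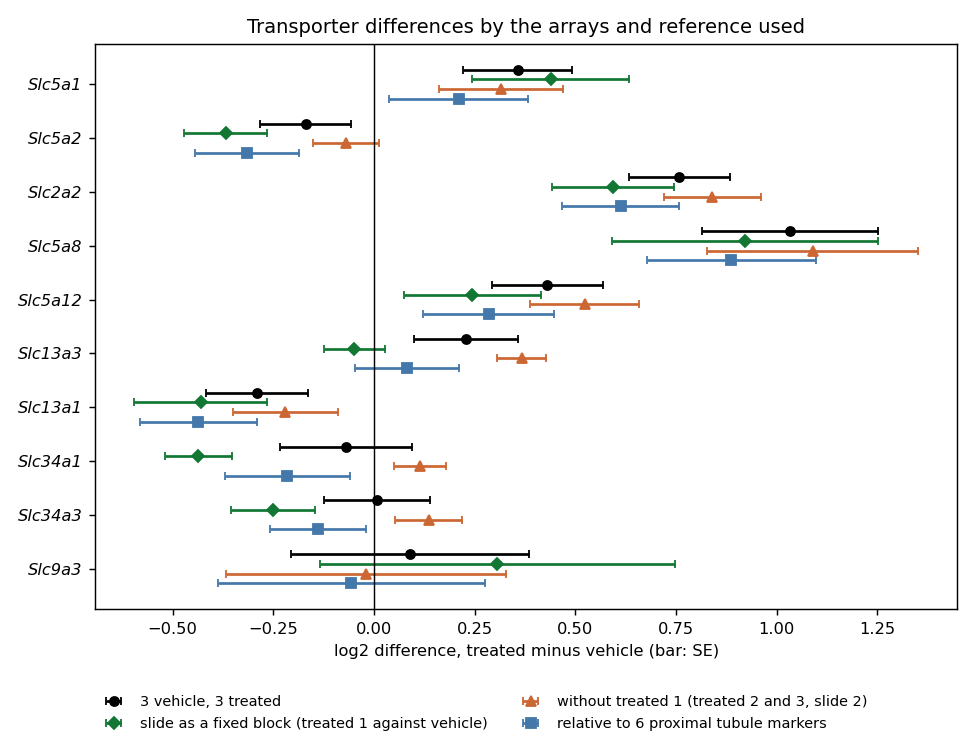
Log2 difference, treated minus vehicle, with its SE for each carrier from all 6 arrays, with slide as a fixed block, without treated 1, and relative to the mean of 6 proximal tubule markers on the same array. Slc2a2, Slc5a8, Slc5a12 and Slc5a1 stay above 0 and Slc5a2 and Slc13a1 below 0 in all 4 settings, while Slc13a3, Slc34a1, Slc34a3 and Slc9a3 lie on both sides.

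The carriers were also expressed relative to the general proximal tubule markers on the same array. The mean log2 signal of those 6 markers was 6.03, 6.08 and 6.19 in vehicle and 6.17, 6.35 and 6.21 in treated arrays, and 0 of the 6 passed over all probes. That mean was 0.15 higher in the treated group, and the scale takes this same amount from the difference of every carrier by construction. The median difference of the 10 carriers was then 0.01, with Slc5a8 at 0.89, Slc2a2 at 0.61 and Slc13a1 at -0.44. Of the 6 markers, 5 had positive differences, the largest being Ggt1, the brush border enzyme gamma-glutamyltransferase (0.59, SE 0.19, limma adjusted p = 0.19). Lrp2, the endocytic receptor megalin, was lower on every treated array (-0.33, SE 0.10, limma adjusted p = 0.17).

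Related genes were read from 6 lists with 66 names, older symbols included, of which 60 were tested. None was called over all probes, with limma adjusted p-values from 0.12 to 0.999, and 11 were higher and 0 lower at an unadjusted limma p under 0.05, against 10.1% and 11.3% of all tested genes. Groups did not overlap for 13 higher and 4 lower genes, against 13.9% and 16.8% of all tested genes. The median difference was 0.16 with all arrays and -0.00 with slide as a block.

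The other glucose and sugar carriers had the largest differences. Of 8 tested, 5 were higher on every treated array (Slc5a10, Slc2a5, Slc2a4, Slc5a3 and Slc2a1), against 13.9% of all tested genes, 0 passed over all probes, and the list median was 0.57 and 0.85 with slide as a block. Slc5a10, the mannose and fructose carrier SGLT5, read 1.49, 2.89 and 3.14 in vehicle and 4.20, 3.95 and 4.44 in treated arrays, a difference of 1.69 (SE 0.44, limma adjusted p = 0.14). The fructose carrier Slc2a5, found in the straight segment in rat, read 1.20, 1.97 and 2.62 in vehicle and 3.10, 3.37 and 3.47 in treated arrays, a difference of 1.38 (SE 0.35, limma adjusted p = 0.14). In both genes vehicle 1 was the lowest array, as it was for 6 of the 8 straight segment markers. Of the other markers, Acsm3 was lowest in vehicle 3 and Slc7a9 in treated 1. Slc2a4, the insulin-responsive glucose carrier of fat and muscle, stood at -0.79 in treated 1 and between -2.79 and -2.21 on the other 5 arrays. On slide 1 alone, where treated 1 was the only treated array, the Slc2a4 difference was 1.93. Of 4 fat markers on the array, Lep was never well above background. Cidec and Ucp1 were higher on every treated array, and Adipoq, which encodes the fat hormone adiponectin, differed by -0.08 and was lowest of the 6 arrays in treated 1, at -0.78. Their summed linear signal ranged from 0.987 to 1.67 times the 75th percentile in vehicle and from 2.05 to 2.25 in treated arrays, and their part in the Slc2a4 values was not tested.

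The other phosphate carriers and hormone genes had a median of 0.15 over 12 genes, and -0.00 with slide as a block. Of the 12, 2 were higher on every treated array (Slc20a1 and Vdr) and 1 lower (Xpr1), with 0 called. Over all tested genes these shares were 13.9% and 16.8%. Slc20a1, a sodium-phosphate carrier found in most cells, read 0.85, 1.01 and 0.96 in vehicle and 1.51, 1.27 and 1.93 in treated arrays (difference 0.63, SE 0.17, limma adjusted p = 0.16). Cyp24a1, which inactivates vitamin D, ranged from 0.12 to 1.70 in vehicle and from 0.85 to 2.26 in treated arrays (difference 0.94, SE 0.54, limma adjusted p = 0.36). Slc34a2, the phosphate carrier of gut and lung, had the next largest difference (0.88, SE 0.76, limma adjusted p = 0.53) and was well above background on 2 of 3 vehicle arrays. The FGF23 co-receptor Kl (-0.01, SE 0.15) and the parathyroid hormone receptor Pth1r (-0.06, SE 0.20) resembled the phosphate carriers in that treated 1 was below all vehicle arrays, at 1.45 and 4.20, and treated 2 and 3 above them.

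The other sulfate and carboxylate carriers had a median of 0.09 over 13 genes. Slc26a1, the basolateral sulfate exit carrier, read 6.37, 6.10 and 6.02 in vehicle and 6.52, 6.97 and 7.37 in treated arrays, a difference of 0.79 (SE 0.23, limma adjusted p = 0.16). It was 0.36 with slide as a block. The apical entry carrier Slc13a1 and this exit carrier thus lay on opposite sides of 0, with neither called. Slc13a2, the apical citrate carrier NaDC1, read 5.30, 5.32 and 5.36 in vehicle and 5.35, 5.83 and 6.22 in treated arrays, a difference of 0.47 (SE 0.22, limma adjusted p = 0.28). The slide-blocked difference was 0.02.

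Acid-base and sodium partners (median 0.05 over 12 genes) and scaffolds (0.01 over 8 genes) had medians near that of all genes, with 0 called in each. The basolateral bicarbonate carrier Slc4a4 differed by 0.28 (SE 0.14, limma adjusted p = 0.31) and the water channel Aqp1 by 0.25 (SE 0.12, limma adjusted p = 0.30). Among the scaffolds, Nherf2 was higher on every treated array (0.48, SE 0.15, limma adjusted p = 0.17) and Ezr, which encodes ezrin, lower on every treated array (-0.16, SE 0.09, limma adjusted p = 0.34). Pdzk1 (0.06, SE 0.10) and Nherf1 (0.03, SE 0.09), which anchor NaPi-IIa, had intervals that span 0.

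Transcription factors and kinases of the tubule had a median of 0.32 over 7 genes. Hnf4a, a nuclear receptor of proximal tubule and liver, read 3.61, 3.14 and 3.48 in vehicle and 3.74, 3.99 and 3.94 in treated arrays, a difference of 0.48 (SE 0.14, limma adjusted p = 0.17). Blocking on slide gave 0.33. Nr1h4, the bile acid receptor FXR, differed by 0.44 (SE 0.22, limma adjusted p = 0.32) and by -0.04 with slide as a block. The kinase gene Stk39 (0.19, SE 0.10, limma adjusted p = 0.34) was also higher on every treated array, and it was named after its values were seen.

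**Figure D5:**
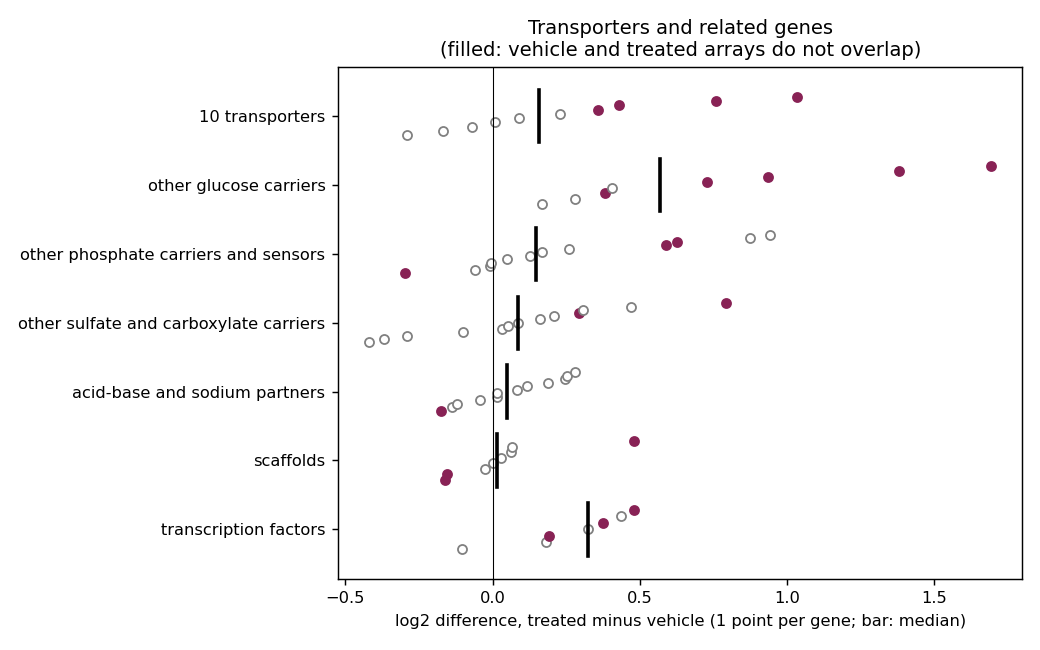
Log2 difference, treated minus vehicle, for the 10 carriers and the 60 tested related genes, with 1 point per gene, filled where the groups do not overlap, and a bar at the list median. The other glucose carriers reach 1.69 and have the highest median at 0.57, and the acid-base partners and scaffolds centre near 0.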

How the data were processed

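Total RNA of 6 renal cortex samples was labelled with Cy3 and hybridised to 1-colour Agilent rat arrays, per the labels' protocols. Per the file headers, the authors' spot intensity values came from Agilent Feature Extraction 10.7.1.1 (10.7 per the submitters' processing notes) and are background-subtracted. No probe was saturated, and spots with outlier flags (11 probes) were removed. Log2 of the processed signal minus each array's 75th percentile was analysed. A probe was tested when well above background on all 3 arrays of a group, which left 40643 of 61537. Accessions were matched without versions to RefSeq (GRCr8): 28193 probes had 1 symbol and 33344 none. The probe with the highest mean signal stood for a gene. Groups came from the labels. Two-sided moderated tests used lmFit and eBayes of limma 3.58.1, run in R 4.3.3. The test was tested on simulated data. With 3 arrays a group, the number of arrays limits precision.

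The authors' deposited series table of intensity values correlated with these values at 0.999999 or higher on every array (log2 scale), which sets its direction and leaves its scaling unstated, and had column medians of 0.110, 0.108, 0.109, 0.109, 0.105 and 0.105. Members and lists were chosen with earlier results of these data known. Named genes were all 10 carriers and, of each related list, called genes or the 2 with the largest difference. Others, such as genes called under an alternative, were chosen after their values were seen. Alternatives covered background correction, normalization, detection filter, slide and replicate blocks, variance model, each array left out and the choice of probe. Protein sequences were not used here, and some listed genes and motifs are not reported here. In the normexp alternative the median spot signal replaced the planned mean, which was not used here.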

Additional observations from a re-analysis of the deposited data

How the results depend on the processing

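The 10 carriers remained without a call in every alternative except leaving out treated 1, and Slc5a1, Slc2a2, Slc5a8 and Slc5a12 stayed positive and Slc5a2 and Slc13a1 negative in all. Leaving out 1 array gave 0 to 2 called carriers and 0 to 8 called genes among the 60 tested related genes. Both upper counts came without treated 1, where 10.3% of all tested probes were called. The carrier median over the settings with 1 array left out ran from 0.086 (without treated 3) to 0.26 (without vehicle 2). On those settings Slc2a2 ranged from 0.63 to 0.84, Slc13a3 from 0.15 to 0.37, Slc34a1 from -0.17 to 0.11, Slc34a3 from -0.10 to 0.14 and Slc9a3 from -0.21 to 0.30. Slc34a3 reversed to -0.045 with quantile normalization, to -0.25 with slide as a fixed block and on slide 1 alone, and to -0.11 with slide as a random block. Slc13a3 reversed to -0.049 with slide as a fixed block and on slide 1 alone, and Slc9a3 to -0.26 with the mean of all its probes. Relative to proximal tubule markers, a setting added after seeing the data, the carrier median was 0.013, Slc34a3 was -0.14 and Slc9a3 -0.057, since it lowers every difference by the same 0.15. The 3 probes called among all became 136 with normexp, 17 with median centring, 1 without a filter, 1 with slide as a fixed block, 280 on slide 1 alone (where 1 related gene was called), 156 with a trended robust variance and 1 to 4235 with an array left out. They became 0 when probes had to be above background on every array (8001 at an unadjusted limma p under 0.05) and 0 with the replicate block (7240). The labels give replicate numbers and do not state a pairing. Deviations of same-numbered arrays correlated at -0.21, 0.01 and -0.16 across probes, and those of differently numbered arrays at -0.10 to 0.22. Each deviation was taken from a mean of 3 arrays, which ties these values together, so they cannot decide on pairing. With the replicate block 0 carriers were called (3 at an unadjusted limma p under 0.05). The cause of the other changes was not tested, and dim probes, such as those of Slc34a2, limit what can be read.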
